A study of Leucoraja erinaceus with 4 samples.

Results

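A group of 161 assembled genes was at least 4-fold higher in both parts of the skate's electrosensory ampullary organ than in body skin and liver. These 161 were chosen from the 186064 assembled genes of the transcriptome by their measured levels. Each had 500 or more reads in the library of ampullary receptor cells and 500 or more in that of ampullary canals. The lower of these levels, in counts per 1000000 library reads (CPM) plus 0.5, was at least 4 times the higher of the levels in body skin and liver. This ratio is called the margin below. The difference between the ampullary libraries and skin and liver was therefore fixed by the choice and is given as a description.

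All tissue came from 1 adult little skate (Leucoraja erinacea), and no treatment, genotype, sex or age beyond the adult stage is given in the sources used here. The 4 libraries came from ampullary receptor cells, labelled as the electroreceptor cells, from ampullary canals, labelled as the structure leading to them, from body skin labelled as free of electroreceptors, and from a 4 mg piece of liver. Each tissue gave 1 poly(A)-selected, stranded library made from 1 µg of total RNA. With 1 library per tissue no difference has a replicate check and no p-value was computed.

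Cartilaginous fishes detect weak electric fields with the ampullae of Lorenzini. Each organ is a canal filled with a conductive jelly that opens at a skin pore and ends in a blind chamber, whose wall holds the electroreceptor cells among supporting cells. In the little skate the receptor cells are known to use a low-threshold, voltage-gated L-type calcium channel together with a large-conductance, calcium-activated potassium channel. The canal wall is an epithelium of high electrical resistance. None of these genes could be located here, because the files identify assembled genes by assembly number only. Looked up among the 23250 RefSeq genes of assembly Leri_hhj_1, 0 of these numbers found an entry, so the members are given by identifier, without names, functions or sequences. For the same reason the tissue labels could not be checked against marker genes. In bulk tissue a lower level may mean fewer cells of a type or less RNA per cell, and these cannot be told apart.

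Library totals were close, from 11071249 reads in liver to 12303108 in canals. At least 500 reads in both ampullary libraries were found for 2808 assembled genes, and the 161 members are 5.73% of them. Taken singly, receptor cells were at least 4-fold above skin for 10.3% of the 2808 and above liver for 25.8%, and canals for 11.6% and 23.3%. With both ampullary libraries set against skin alone, 7.8% of the 2808 passed the 4-fold rule, and against liver alone 16.4% did. With library totals skin was thus the narrower gate. Under the same rule for other pairs of tissues, receptor cells and skin shared 89 of 2734 assembled genes (3.26%), and skin and liver shared 33 of 1374 (2.4%). Receptor cells and liver shared 20 of 1425 (1.40%), canals and skin 19 of 2365 (0.803%), and canals and liver 7 of 1340 (0.522%). These counts use library totals. Rescaling by trimmed means (TMM factors, described below) left 114 of the 161 members, and the other pairs were not repeated with it.

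The members took 10.96% of the canal reads (exact Clopper-Pearson 95% interval 10.94 to 10.97, as for all intervals in parentheses) and 4.62% of the receptor-cell reads (4.61 to 4.63). They took 0.217% of the skin reads (0.215 to 0.220) and 0.108% of the liver reads (0.106 to 0.110). These intervals, like all others given here, cover counting error only. A few members carried much of this signal. In canals c80805_g1 alone held 3.16% of all reads, and without it the members' share of the canal library was 7.8%. In receptor cells c76333_g1 held 1.02% of all reads, and without it the share was 3.6%. The 10 most abundant members held 64.5% of the members' reads in canals and 51.9% in receptor cells.

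The median member had 1345 reads from receptor cells, 1931 from canals, 81 from skin and 34 from liver. The ranges were wide, from 529 to 124629 reads in receptor cells and from 504 to 388787 in canals. In skin the members ranged from 0 to 2237 reads and in liver from 0 to 899. As CPM the medians were 110 and 157 in the receptor-cell and canal libraries, against 6.91 in skin and 3.07 in liver. The corresponding medians of all 2808 assembled genes were 97.5, 86.6, 81.3 and 40.0 CPM. The members thus lay near the median of other assembled genes of this read class in receptor cells, and above it in canals.

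**Figure D1:**
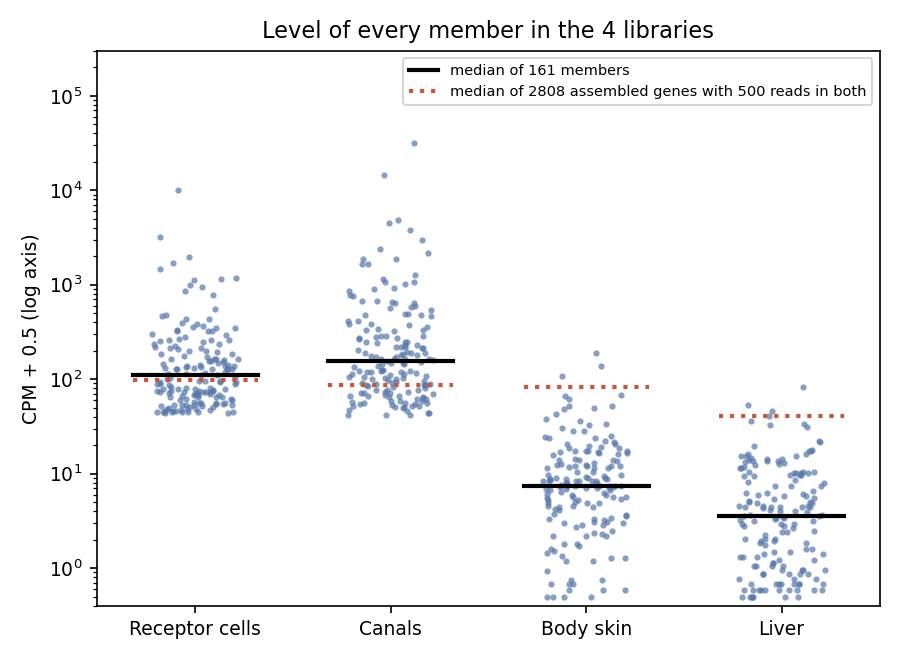
Level of each of the 161 members (points) in the 4 libraries, as CPM + 0.5 on a log axis. Black lines mark the members' median and dotted red lines the median of the 2808 assembled genes with 500 reads in both ampullary libraries; the members' medians without the added 0.5 are 110, 157, 6.91 and 3.07 CPM, and the low values in skin and liver follow from how members were chosen.

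Levels of different assembled genes can be compared only per length, for which the deposited TPM values, each transcript's share scaled to 1000000, were used. The median member had 51.0 TPM in receptor cells and 58.4 TPM in canals, against 46.4 and 39.45 TPM for the 2808 assembled genes. Among the 1000 assembled genes with the highest TPM of each library, 49 were members in receptor cells and 65 in canals, and 38 members were in both lists. Among the 100 highest, 5 were members in receptor cells and 6 in canals. Members are 5.73% of the 2808, and how many of the 2808 reached these lists was not counted. The read minimum itself favours high levels, so these counts are a description.

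Ranked by the lower of the ampullary TPM levels, c166838_g1, a short member described below with the liver values, stood first. Ranked by the lower of the ampullary CPM levels, which do not allow for length, the first was c87155_g1, an assembled gene of 4 transcripts with a mean length of 3881 bases in receptor cells. It had 39524 reads from receptor cells, 59851 from canals, 1599 from skin and 16 from liver. Its TPM was 1007 in receptor cells and 1421 in canals, rank 96 and rank 106 of those libraries. Receptor cells, the lower of the ampullary libraries, were 23.7-fold above skin (22.5 to 24.9). The contrast between skin and liver was large for this member, with 136.5 CPM against 1.45. Second by CPM was c91361_g2, 2611 bases long, with 21034 reads from receptor cells, 22776 from canals, 87 from skin and 22 from liver. Its level was nearly equal in the ampullary libraries, at 820 and 813.5 TPM, and 231-fold above skin in receptor cells (187.5 to 289).

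Depth of separation from skin and liver differed greatly among members. The median margin was 8.53 and the largest 651. A margin of 8 or more was found for 86 members, of 16 or more for 51, and of 64 or more for 17. Of the 2808 assembled genes, these are 3.06%, 1.82% and 0.605%, and since every one of them is a member by the rule the shares describe the choice. The largest margin belonged to c86908_g1 (1600 bases). The receptor-cell library held 23807 reads of it and the canal library 4720, while skin held 0 and liver 1. Canals were 4247-fold above liver, with an interval of 762 to 167799 that shows how little a single liver read fixes this number. This fold leaves out the 0.5 CPM that the margin adds to each level. With 0.1 or 2 CPM added instead, the log2 margin of c86908_g1 went from 9.35 to 10.98 or 7.53. Next came c78250_g1 (3119 bases), with 4330 reads from receptor cells, 3000 from canals and 1 each from skin and liver. For this member canals were 2700-fold above liver (484 to 106664). With 2 CPM added the log2 margin of c78250_g1 was 6.88, below the 7.51 of c91361_g2. With the deposited TPM they were 7.36 and 7.69.

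Near absence from skin and liver was found for 12 members, which had 10 reads or fewer in each. Any of the 2808 assembled genes with so few reads in both would be a member by the rule, so this count describes the choice. In the ampullary libraries these 12 ranged from 609 to 23807 reads in receptor cells and from 532 to 20488 in canals. Skin had 0 reads for 4 members and liver 0 for 7, and the same counts over the 2808 were not made. Only c89239_g2 (1735 bases) had 0 in both, with 841 reads from receptor cells and 539 from canals; it was singled out after its values were seen. Setting its 0 reads in liver to 3, canals were 161.7-fold above liver for it. The exact 95% interval began lower, at 131, so 161.7 is not a minimum. With the same setting of 3 reads, a count of 0 allows up to 0.256 CPM in skin and 0.271 CPM in liver.

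At the other end, some members were well represented in skin or liver, with both ampullary CPM levels at least 4-fold higher still, as the rule requires. Skin had 100 reads or more for 65 of the 161 members and liver for 44. At least 500 reads were found in skin for 10 and in liver for 3. The rule caps these levels, and the same counts over the 2808 assembled genes were not made. By reads, which do not allow for length, the most abundant member in skin was c81788_g1 (4899 bases), with 12153 reads from receptor cells, 10431 from canals, 2237 from skin and 337 from liver. The highest liver level, by reads and per length, was that of c166838_g1, which at 371 bases was also the shortest member. It had 4007 reads from receptor cells, 7943 from canals, 391 from skin and 899 from liver. Per length it ranked 17 in receptor cells, at 2437 TPM, and 43 in canals, at 4183 TPM, and skin and liver also held 255 and 642 TPM of it. With the deposited TPM its log2 margin was 1.92, short of the 4-fold rule, and with TMM factors it was 0.72. Membership thus describes a ratio between tissues and not an absence from skin and liver.

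The rule's limits had no gap around them. Just inside the 4-fold margin stood c85066_g1, with a margin of 4.01 and 5304, 12618, 1262 and 580 reads in receptor cells, canals, skin and liver, and c166838_g1, also at 4.01. Just outside stood c67709_g1 at 3.96, with 30610 reads from receptor cells, 59296 from canals, 3579 from skin and 6984 from liver, and c88751_g1 at 3.96, with 3111, 4822, 748 and 185. Margins from 4 to 5 were found for 29 members, and margins from 3 to 4 for 40 assembled genes that are not members. At the read minimum, c43883_g1 with 504 canal reads and c59488_g1 with 509 were inside, and c73326_g2 with 496 receptor-cell reads and c91025_g1 with 495 were outside.

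**Figure D2:**
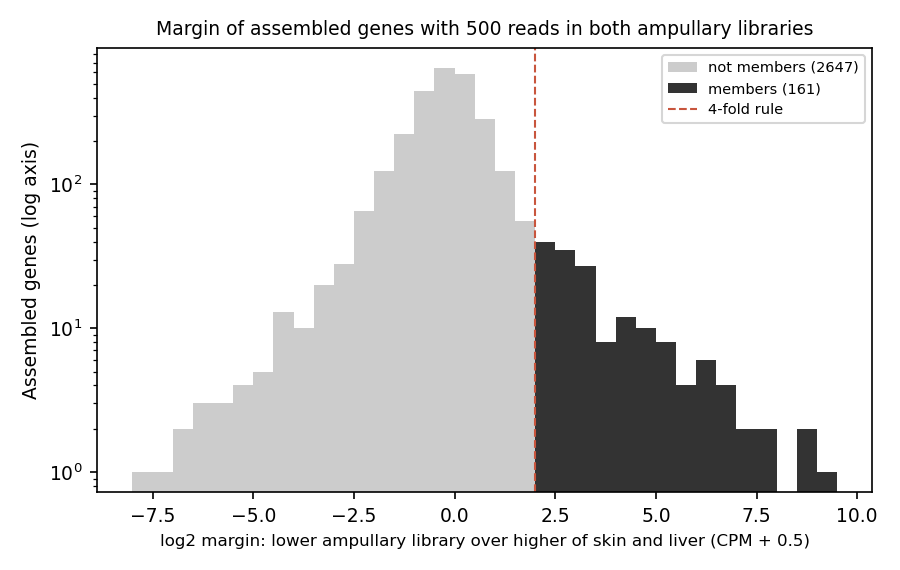
Histogram of the log2 margin of the 2808 assembled genes with 500 reads in both ampullary libraries, with their number on a log axis. The 161 members (dark) lie to the right of the 4-fold line and form the declining tail of 1 continuous distribution, with 17 members at a margin of 64 or more.

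The balance between receptor cells and canals was not set by the rule, although the rule used both levels, so it is described without a test. With library totals, 103 members were higher in canals and 58 in receptor cells, against 43.5% of the 2808 assembled genes that were higher in canals. The members' median log2 ratio of receptor cells to canals was -0.50, and that of the 2808 was 0.13. The direction of single members depends on the scaling, since with TMM factors (trimmed means that rescale the libraries) the members higher in canals became 134 and both medians moved down by about the same amount, to -1.05 and -0.42. Relative to the median of the 2808, the members' median lay lower by 0.63 on the log2 scale with library totals, and 113 of the 161 lay below it. Rescaling a library shifts both medians almost alike and so leaves this difference in place by construction; with the deposited TPM it was 0.61, with 112 below. Members also spread more widely, with a standard deviation of the log2 ratio of 1.55 against 1.01. Across the 161 members, which share the same libraries and are not independent, log2 levels in receptor cells and canals had Pearson's r = 0.537 and Spearman's rho = 0.516, and across the 2808 they had 0.695 and 0.588.

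**Figure D3:**
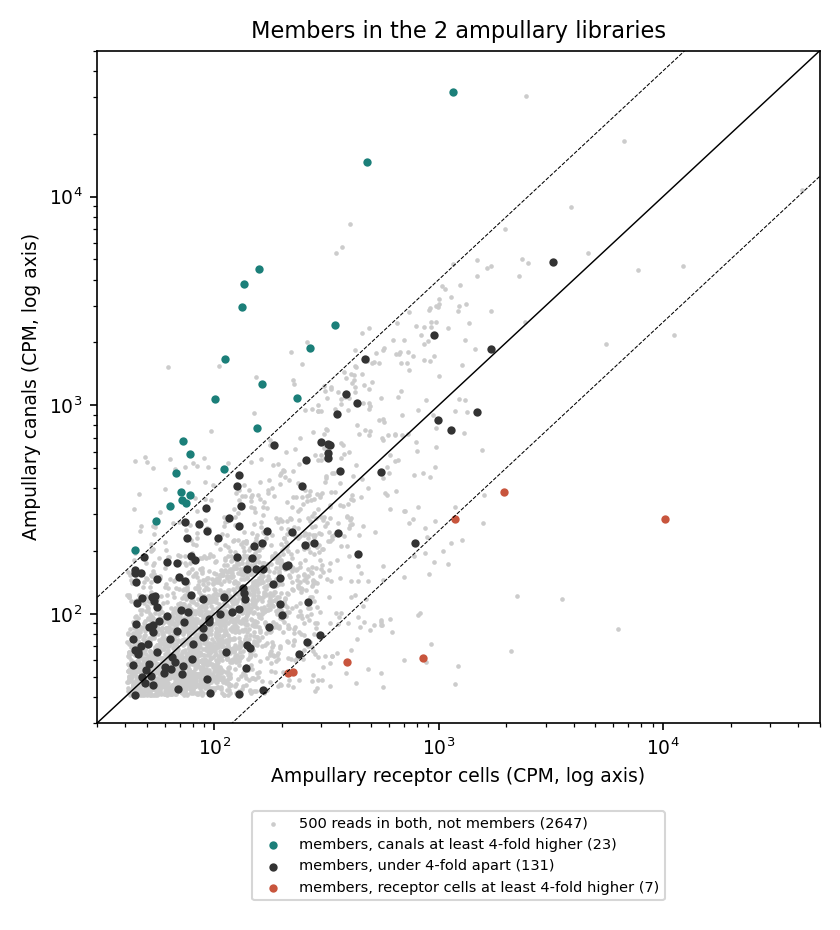
Level of each member in receptor cells (x) and canals (y), in CPM on log axes, over the 2647 other assembled genes with 500 reads in both (grey). The solid line marks equal levels and the dashed lines 4-fold differences; 23 members lie above the upper line and 7 below the lower one with library totals.

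With library totals, levels within 2-fold of each other were the most common state. Within 2-fold lay 82 members, or 50.9%, against 75.4% of the 2808 assembled genes. Within 1.1-fold lay 16 members, and the share of the 2808 there was not computed. The ratio closest to 1 was that of c93915_g1, with 1158 reads from receptor cells, 1165 from canals, 100 from skin and 174 from liver. Receptor cells stood at 0.999 of the canal level (0.920 to 1.08). Likewise c84394_g1 had 2007 reads from receptor cells, 2020 from canals, 274 from skin and 157 from liver, a ratio of 0.999 (0.938 to 1.06). The margins of c93915_g1 and c84394_g1, 5.87 and 6.89, were below the members' median. With TMM factors the log2 margin of c93915_g1 fell to 1.29, short of the 4-fold rule, and its log2 ratio was -0.55, still within 2-fold, while c84394_g1 stayed a member at a log2 margin of 2.22 and a log2 ratio of -0.55. The 82 balanced members held 38.9% of the members' reads in receptor cells and 18.2% in canals. With TMM factors, 114 members passed the rule and 46 of these lay within 2-fold.

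Canals were at least 4-fold higher for 23 members (14.3%, against 2.53% of the 2808), and these 23 held 65.8% of the members' reads in canals but 9.14% in receptor cells. A further 36 members were 2-fold to 4-fold higher in canals, a class whose share of the 2808 was not computed. The member most skewed to canals was c81704_g3 (2362 bases), with 5866 reads from receptor cells, 179847 from canals, 236 from skin and 40 from liver. Canals were 30.5-fold above receptor cells (29.7 to 31.3), and receptor cells in turn 23.8-fold above skin (20.9 to 27.2). Next was c51194_g1 (1257 bases), at 1939, 55627, 14 and 6 reads in receptor cells, canals, skin and liver, and 28.5-fold higher in canals (27.3 to 29.9). With TMM factors, 38 of the 161 members were at least 4-fold higher in canals. These factors move all 2808 assembled genes toward canals, and the share of the 2808 was not computed with them.

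For the 5 members that were 16-fold or more higher in canals, a limit that itself caps the ratio, the level in receptor cells was between 3.28% and 4.48% of that in canals, with a median of 3.57%. Besides c81704_g3 and c51194_g1 they were c76095_g1, c80805_g1 and c67625_g1, and the next member outside the limit was c89742_g1, at 6.70%. These 4 are named after their values were seen. How many of the 2808 assembled genes passed the 16-fold limit was not counted. Among all members c80805_g1 had the highest level of any member in canals, with 14193 reads from receptor cells, 388787 from canals, 158 from skin and 67 from liver, or 598 TPM in receptor cells and 15801 in canals. How much canal tissue the receptor-cell sample held as dissected was not tested. As a description, the lowest receptor-cell level was taken among assembled genes with 10000 or more canal reads, which by coincidence also numbered 161. It belonged to c68108_g2, a non-member with 11311 canal reads and 27 in receptor cells, or 0.240% of the canal level. In all, 4 assembled genes of that abundance lay below the lowest member. Among the 20 members with 10000 or more canal reads the median receptor-cell level was 17.9% of the canal level. The median over all assembled genes of that abundance was not computed.

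Receptor cells were at least 4-fold higher for 7 members (4.35%, against 2.67% of the 2808). They were 2-fold to 4-fold higher for 13, a class whose share of the 2808 was not computed. The 7 held 32.4% of the members' reads in receptor cells and 1.08% in canals. Most of those receptor-cell reads came from c76333_g1 (1638 bases). For it the receptor-cell library held 124629 reads, the canal library 3487, and skin and liver 12 each. Its TPM in receptor cells was 8191, rank 5 of that library, and 209 in canals, and receptor cells were 35.9-fold above canals (34.7 to 37.2). Canals still stood 261.5-fold above liver (149.5 to 507). Second was c91539_g1, of 4 transcripts and 8170 bases, with 10372 reads from receptor cells, 753 from canals, 11 from skin and 25 from liver, a 13.8-fold difference (12.9 to 14.9). With TMM factors, 3 of the 161 members were at least 4-fold higher in receptor cells, and the share of the 2808 was not computed with them.

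The canal level of c76333_g1 was 2.78% of that in receptor cells, the lowest among members. Among the 112 assembled genes with 10000 or more receptor-cell reads, 16 had a lower canal share, down to 0.0183% for c80895_g1, with 21776 reads from receptor cells and 4 from canals. Members skewed to receptor cells had larger margins, with a median of 22.4, than those skewed to canals, with 9.16, and the balanced ones, with 7.86. These classes hold 7, 23 and 82 members, with margins from 4.35 to 651, from 4.485 to 108 and from 4.01 to 414. The rule chose members by the margin, so the medians are a description, and the difference between classes was not tested.

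**Figure D4:**
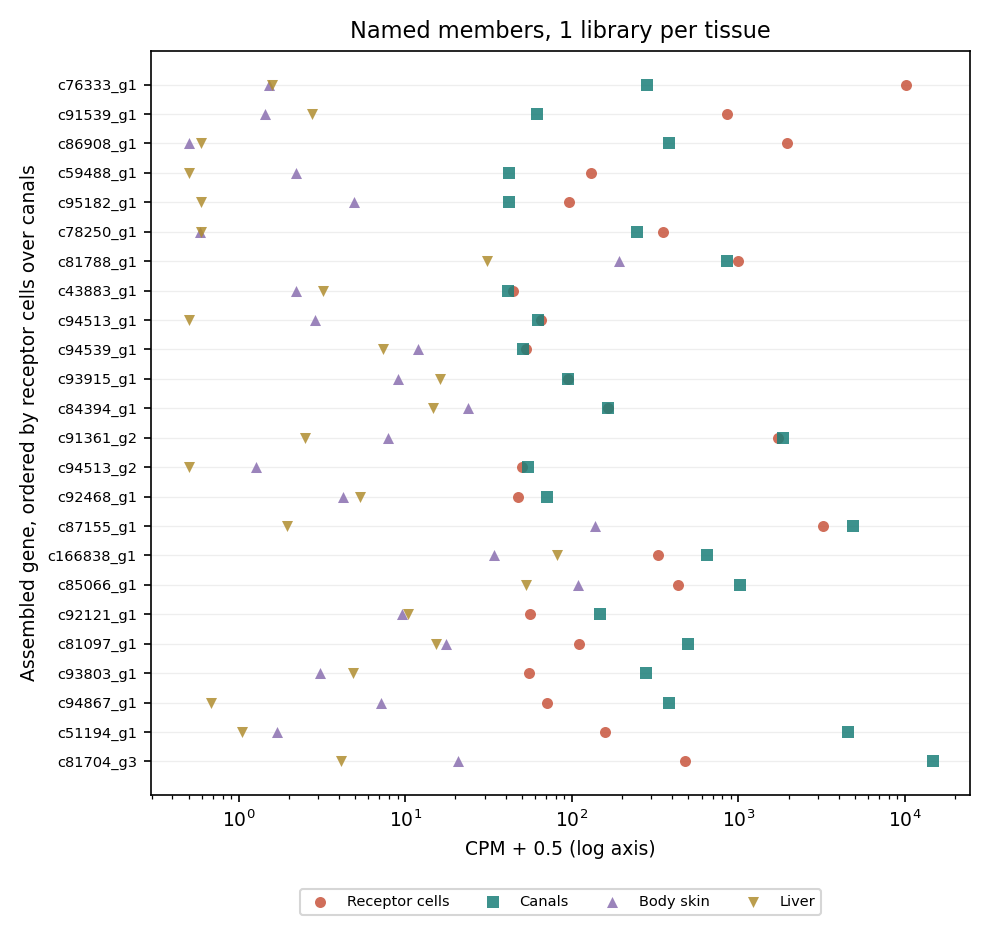
Level of the 24 members named by rule in receptor cells, canals, skin and liver, as CPM + 0.5 on a log axis, ordered by the ratio of receptor cells to canals. Other members named in the text, such as c80805_g1, are not shown. The rows run from c81704_g3, 30.5-fold higher in canals, at the bottom to c76333_g1, 35.9-fold higher in receptor cells, at the top; in each row both ampullary points lie to the right of skin and liver, as the rule requires.

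Between the tissues outside the organ, skin was the higher for 120 members, or 74.5%, against 85.2% of the 2808 assembled genes. Skin was at least 4-fold above liver for 48 members (29.8%, against 17.2%), and liver at least 4-fold above skin for 9 (5.59%, against 3.06%). The rule caps both levels and so these shares are a description. Combined with the ampullary side, the margin of 82 members was set by receptor cells over skin, of 21 by receptor cells over liver, of 38 by canals over skin and of 19 by canals over liver. The remaining member was c89239_g2, with 0 reads in both. This split was not computed for the 2808. All counts in this paragraph use library totals. TMM factors, at 1.11 for skin and 0.604 for liver, lower skin relative to liver, and the counts were not repeated with them.

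Length and transcript number were not used by the rule, and in both the members lay close to all assembled genes of their read class. The median length in receptor cells was 2836 bases for members and 2766 for the 2808. At 2000 bases or more were 73.9% of the members and 69.3% of the 2808, and at 5000 bases or more 16.8% and 16.8%. The longest members were c95182_g1 (12649.6 bases, 3 transcripts) and c94867_g1 (11402 bases, 2 transcripts). They had 1165 and 864 reads in receptor cells, 512 and 4704 in canals, 52 and 78 in skin, and 1 and 2 in liver. Despite those reads they were low per length, at 8.74 and 7.21 TPM in receptor cells. The shortest after c166838_g1 was c81097_g1 (622 bases), with 1350 reads from receptor cells, 6075 from canals, 200 from skin and 163 from liver, and 312 and 1261 TPM in the ampullary libraries. A total of 79 members (49.1%) had 2 or more transcripts, against 47.6% of the 2808.

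The deposited length is a mean over transcripts weighted by their abundance in a library, so a difference in length between libraries reflects how reads were assigned among the transcripts of an assembled gene. It differed by 1.5-fold or more between receptor cells and canals for 1 of the 79 members with several transcripts (1.27%, against 1.65% of 1336 assembled genes), and by 1.2-fold or more for 6 (7.59%, against 7.93%). The exception was c92121_g1, with a mean length of 2377 bases in receptor cells and 3950 in canals, 1.66-fold longer in canals. It had 682 reads from receptor cells, 1813 from canals, 106 from skin and 110 from liver. Close behind was c93803_g1, at 1361 bases in receptor cells and 2037 in canals. In the other direction c92468_g1 was 2815 bases in receptor cells and 1956.5 in canals, and c94539_g1 was 3694 and 2905. These 4 were the 2 members farthest apart in each direction.

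**Figure D5:**
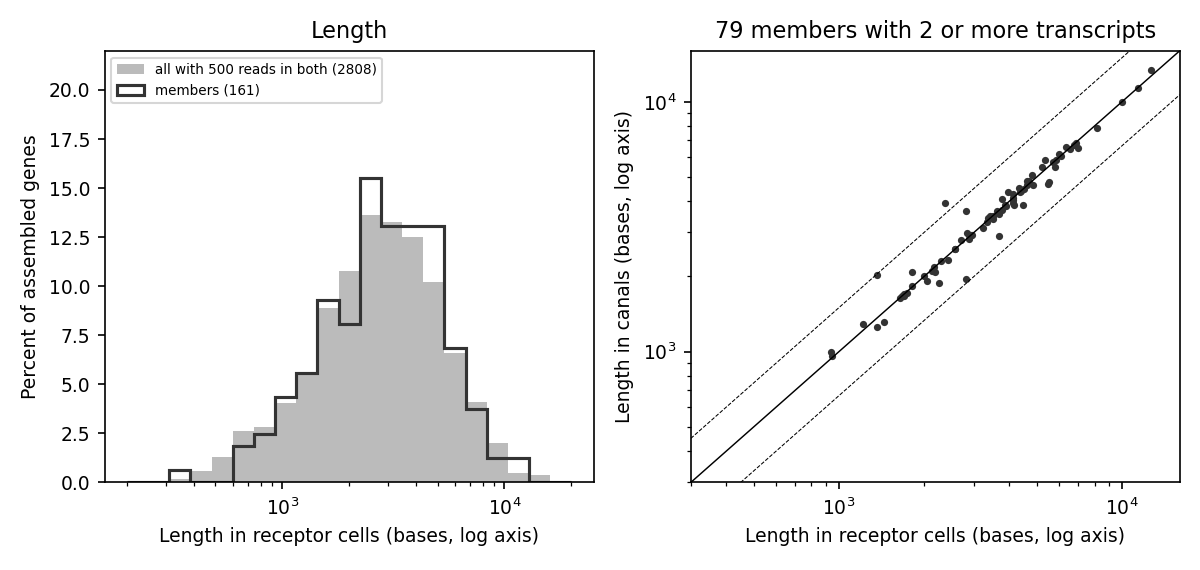
Left, length in receptor cells (bases, log axis) of the 161 members (line) and of the 2808 assembled genes with 500 reads in both ampullary libraries (grey), as percent of each group. Right, abundance-weighted length in receptor cells against canals for the 79 members with 2 or more transcripts, with lines at equality and at 1.5-fold; 1 member lies beyond 1.5-fold.

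Assembled genes with the same first number in their identifier were read as 1 assembly cluster. Members of a cluster can be alleles, fragments or close copies, and the counting can split reads among them, so their values are uncertain. The 161 members fell into 160 clusters, so they are not repeated copies of a few clusters. The pair that shared a cluster was c94513_g1, with 795 reads from receptor cells, 762 from canals, 28 from skin and 0 from liver, and c94513_g2, with 609, 666, 9 and 0. Both were balanced between the ampullary libraries, at ratios of 1.05 (0.948 to 1.16) and 0.919 (0.822 to 1.03).

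In 31 clusters the members had other cluster mates with 100 reads or more in at least 1 library, 46 in all. Of these, 8 (17.4%) also had a margin of 4 or more, against 4.22% of the 15849 assembled genes with 100 reads or more in a library. These 8 fell short of 500 reads in receptor cells or canals. The most abundant, named after its values were seen, was c91361_g1, a mate of c91361_g2. It had 372 reads from receptor cells, 11658 from canals, 41 from skin and 14 from liver, so within 1 cluster a balanced member stood beside a mate skewed to canals. Other mates had another tissue preference. The highest CPM was in receptor cells for 14 mates (30.4%, against 40.9% of the 15849), in canals for 14 (30.4%, against 21.3%), in skin for 11 (23.9%, against 27.5%) and in liver for 7 (15.2%, against 10.3%). An example chosen after its values were seen is c81704_g1, with 56 reads from receptor cells, 41 from canals, 1873 from skin and 12 from liver, in the same cluster as the canal-skewed c81704_g3. In cluster c91046, the member c91046_g4 had 986, 887, 8 and 1 reads in receptor cells, canals, skin and liver, and its mate c91046_g3 had 0 in each but liver, where it had 1311.

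The same rule gave 89 assembled genes shared by receptor cells and skin. Reads on the 89 made up 1.74% of the receptor-cell library and 4.4% of the skin library, against 4.62% and 10.96% of the receptor-cell and canal libraries for the 161. A margin of 16 or more was found for 31.7% of the 161 and 21.3% of the 89, and for 15.2% of the 33 shared by skin and liver. Levels within 2-fold of each other were found for 50.9% of the 161, 53.9% of the 89 and 72.7% of the 33. The share was 65% of the 20 shared by receptor cells and liver. It was 47.4% of the 19 shared by canals and skin, and 57.1% of the 7 shared by canals and liver. These lists use the same 4 libraries and the difference between them was not tested. All of them use library totals, and the lists other than the 161 were not repeated with other scaling.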

How the data were processed

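The authors quantified reads on assembled transcripts with RSEM 1.1.17 (submitters' processing notes); the sources used here name neither assembler nor aligner. Per the file headers, the deposited expected counts estimate how many reads fell on each assembled gene, without normalization; they were rounded to whole numbers. The deposited TPM values, scaled for effective length and depth per the file headers, served for comparisons between assembled genes. The deposited FPKM values were not used. CPM was computed over library totals, with a pseudocount of 0.5. Ratios of single assembled genes are without pseudocount and carry exact (Clopper-Pearson) 95% intervals, which cover counting error only; 0 reads were taken as allowing up to 3. PCR copies are not independent molecules. Library totals were 11071249 to 12303108 reads. The member search and the intervals were run on simulated counts with counting error only and with planted members far from the limits of the rule. This checks the code and not how the rule performs near its limits. TMM factors (edgeR 4.0.16; 1.48 for receptor cells, 1.01 for canals, 1.11 for skin, 0.604 for liver) and DESeq2 1.42.0 size factors, in R 4.3.3, were alternatives. Other steps used Python 3.11.15.

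The members, lists and rules were chosen with earlier results of these data known. The 28 identifiers named by rule are at most 2 per criterion and direction: highest level in both ampullary libraries, largest margin, most skewed to either, most balanced, nearest the limits of the rule on each side, longest and shortest, largest length differences, highest skin and liver levels, and shared cluster.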

Additional observations from a re-analysis of the deposited data

How the results depend on the processing

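No paired analysis was possible because there is 1 library for each tissue, which also leaves no replicate to omit. Of the 161 members, 106 met the rule under all of 6 alternatives in scaling, unit and pseudocount. DESeq2 size factors gave 107 members, all among the 161, with 3 at least 4-fold higher in receptor cells, 43 within 2-fold and a median log2 ratio of -0.93. TMM factors gave 114, also all among the 161, with 3, 46 and -0.97. Both raise the receptor-cell and lower the liver library size, which lowers margins set by receptor cells or by liver. Both also raise skin more than canals, so margins of canals over skin can rise. The log2 margin of c59488_g1 went from 4.25 to 4.35 with TMM factors. Without the dominant assembled genes in the totals, 4 were at least 4-fold higher in receptor cells.

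A lower or higher minimum changes by construction how many are tested. At 10 reads there were 805 members (76 at least 4-fold higher in receptor cells, 113 in canals, 398 within 2-fold), at 100 reads 476 (39, 66 and 245) and at 1000 reads 79 (3, 13 and 39). A 2-fold margin gave 341 members, 213 within 2-fold and a median log2 ratio of -0.22, and an 8-fold margin gave 86, with 14 higher in canals and 41 within 2-fold. Length shifts numbered 6 at 1.2-fold and 0 at 2-fold.

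The members' shares of receptor-cell and canal reads, in that order, were 3.95% and 9.54% with TMM factors, 3.91% and 9.4% with DESeq2 size factors, 4.29% and 10.4% without dominant assembled genes in the totals, 4.5% and 10.9% with the deposited TPM, 4.64% and 10.99% at a pseudocount of 0.1, and 4.44% and 10.7% at 2. They were 6.06% and 12.5% at 100 reads, 3.87% and 9.91% at 1000, 6.56% and 12.9% at 10, 8.37% and 17.1% at a 2-fold margin and 3.55% and 8.31% at 8-fold. With the 4-fold margin on the interval end they were 4.34% and 10.6%, with sums per cluster 4.42% and 9.31%, and from 500 bases upward 4.59% and 10.9%. Chosen after seeing the data, leaving out c80805_g1 gave 4.5% and 7.8%, and leaving out c76333_g1 gave 3.6% and 10.9%. Every share is of all reads of the library, and a setting changed only which assembled genes or clusters counted as members. The cause of movements not stated above was not tested.

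Of 336 log2 margins and ratios of the 28 assembled genes named by rule under the 6 alternatives, 72 moved by more than 1.5-fold. Among those at least 4-fold from 1, 0 changed sign. The TMM and DESeq2 factors differ by less than 4-fold between libraries, so rescaling with them could not change those signs. Named members did fall below the 4-fold rule. With TMM factors the log2 margin of c166838_g1 went from 2.005 to 0.721, and that of c85066_g1 from 2.003 to 1.593. Smaller ratios did change sign: of 28, 5 with TMM factors, 5 with DESeq2 size factors, 5 with the deposited TPM and 3 without dominant assembled genes in the totals. For example, the log2 ratio of c81788_g1 was 0.23 with library totals and -0.32 with TMM factors, and that of c78250_g1 was 0.54 and -0.01. All 28 log2 ratios moved by more than 1.5-fold with DESeq2 size factors, where the shift is common to all. Margins that rest on 1 to 3 outside reads are limited by depth.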
